A study of Mus musculus with 6 samples.

Results

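The transcripts of 10 neural cell adhesion molecules were followed in motor neurons (MNs) derived from control and spinal muscular atrophy (SMA) mouse embryonic stem cells (mESCs). The genes were L1cam, Chl1, Nrcam and Nfasc of the L1 family, Ncam1 and Ncam2, the contactins Cntn1 and Cntn2, and also Alcam and the contactin-associated Cntnap1, which belong to none of these 3 families. They were matched by gene symbol, and make up 10 of the 34433 symbols in a table of 41945 entries. An entry is a gene or a locus of several genes that was measured as a unit. Where a symbol had several entries, the entry with the highest level was used.

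Cell adhesion molecules of these families are surface proteins built from immunoglobulin-like and fibronectin-like domains, with which growing axons hold on to each other, to glia and to the matrix. L1 family proteins cross the membrane and bind ankyrin, which ties them to the spectrin and actin skeleton, while contactins are anchored in the membrane by a lipid and act through partners that cross it. In mature axons some of the same proteins mark out the axon initial segment and the node of Ranvier, where sodium channels are gathered.

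Hb9 control MNs came from the mESC line Hb9, labelled wildtype and described in the methods as SMN2+/+;mSmn+/+. A2 SMA MNs came from the line A2, which is SMN2+/+;mSmn-/- and so lacks functional mouse Smn. In the values below these are also called Hb9 MNs and A2 MNs. The human SMN2 transgene, the FVB/N background and an eGFP reporter under the promoter of Hb9, a transcription factor of MNs, were thus shared by both lines. Embryoid bodies of both lines were given 1 µM retinoic acid and 1 µM SAG, an agonist of Smoothened, for 5 days, and cells that were positive for GFP and excluded propidium iodide were sorted; RNA of 3 samples per genotype was sequenced. Each genotype was 1 cell line, so that genotype and line cannot be told apart, and nothing in the labels says whether the samples were separate differentiations.

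The deposited levels are FPKM (fragments per kilobase of exon, scaled to the number of fragments mapped), which allow for transcript length and can therefore be set side by side between genes. The table holds 1 FPKM value per genotype for the 3 samples together. No difference given here has a replicate check, no SD or p was computed, and the table does not give the number of reads behind a value. Ratios are of A2 SMA over Hb9 control MNs on the log2 scale without a pseudocount, and a difference of more than 2-fold (a log2 ratio below -1 or above 1) is used as a plain limit of size. Smn1, the gene inactivated in A2, was at 137 FPKM in Hb9 MNs against 5.26 FPKM in A2 MNs, a log2 ratio of -4.70.

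The 9 adhesion molecules with their own entry, including Ncam2 at under 1 FPKM, were lower in A2 SMA MNs, each by more than 2-fold. So was the entry in which L1cam is measured together with Arhgap4 and Naa10; the ratio of L1cam alone is not known. The summed level of the 9 was 241 FPKM in Hb9 MNs against 26.3 FPKM in A2 MNs, which is 9.16-fold lower. With the shared entry, and so with 2 genes that are no members, it was 373 and 78.2 FPKM, 4.78-fold lower. Chl1, Cntn2, Nrcam and Ncam1 were lower by more than 8-fold, as were 4.19% of all entries that met the filter described next. Nfasc and Cntn1 were lower by more than 4-fold, which 8.88% of them were, while Alcam differed by 3.22-fold and Cntnap1 by 2.01-fold. A general filter, which asked for 1 FPKM or more in at least 1 genotype and a value above 0 in each, kept 9 of the 10, the shared L1cam entry among them; Ncam2 stayed under it. Of the 14926 entries with a symbol that met the filter, 22.4% were lower by more than 2-fold, against 9 of the 9 adhesion molecules that met it. None of the 9 was higher by more than 2-fold, which 6.83% of all entries were. The median log2 ratio of the 9 was -2.48, and that of all entries was -0.29 (quartiles -0.89 and 0.19). Chl1 and Cntn1 met the filter only through their level in Hb9 control MNs. The 7 with at least 1 FPKM in both genotypes were all lower by more than 2-fold, as were 17.8% of the 13252 entries of that kind. Relative to the median entry, which was itself lower in A2 SMA MNs, 8 of the 9 were lower by more than 2-fold, Cntnap1 being the exception; on that scale 16.5% of all entries were lower and 10.4% higher by more than 2-fold.

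**Figure D1:**
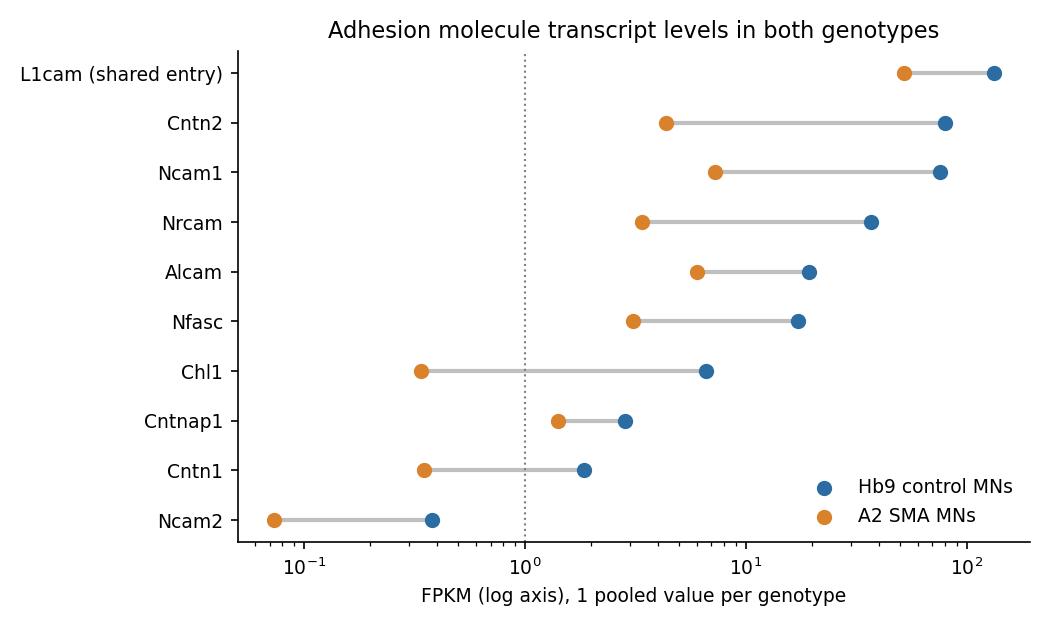
Transcript level of each adhesion molecule in FPKM on a log axis, as 1 pooled value per genotype (blue, Hb9 control MNs; orange, A2 SMA MNs; no error can be drawn), ordered by the level in Hb9 control MNs. Every orange point lies to the left of its blue point, from a 2.01-fold gap for Cntnap1 to a 19.5-fold gap for Chl1; the dotted line marks 1 FPKM, and the L1cam value belongs to an entry shared with other genes.

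The bases before their transcription starts were read as well. RefSeq windows (assembly GRCm38.p6) were found for 8 of the 10 genes, 12 windows in all; for Ncam1 and Cntnap1 no window was found. The 250 bases before the start are printed for the 3 genes in which this start coincides with the gene start of GENCODE M21 and no annotated exon enters the window. They are shown so that the matches described next can be seen in place. Letters in capitals are matches to GGGCGG or CCAAT, searched on both strands, and each line ends at the base before the start.
Nrcam, plus strand, chr12:44328635-44328884: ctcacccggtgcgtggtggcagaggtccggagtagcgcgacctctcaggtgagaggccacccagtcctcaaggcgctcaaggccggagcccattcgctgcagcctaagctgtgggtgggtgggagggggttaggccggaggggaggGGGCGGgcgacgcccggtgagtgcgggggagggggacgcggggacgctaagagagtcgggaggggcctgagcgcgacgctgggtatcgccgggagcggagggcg
Cntn1, plus strand, chr15:92050915-92051164: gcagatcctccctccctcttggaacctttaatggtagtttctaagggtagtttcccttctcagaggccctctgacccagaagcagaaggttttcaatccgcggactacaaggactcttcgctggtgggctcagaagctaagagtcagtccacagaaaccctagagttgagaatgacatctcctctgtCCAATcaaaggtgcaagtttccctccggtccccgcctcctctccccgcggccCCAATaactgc
Ncam2, plus strand, chr16:81200447-81200696: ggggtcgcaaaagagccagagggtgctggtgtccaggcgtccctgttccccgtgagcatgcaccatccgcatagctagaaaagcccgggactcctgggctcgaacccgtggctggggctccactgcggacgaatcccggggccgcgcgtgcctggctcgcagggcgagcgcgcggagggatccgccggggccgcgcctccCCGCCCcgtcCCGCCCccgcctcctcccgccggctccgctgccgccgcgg

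The windows of Nrcam and Ncam2 were rich in G and C (72.4% and 75.2%) and had CpG ratios, observed over expected, of 0.847 and 0.909. That of Cntn1 had 53.6% G and C and a CpG ratio of 0.405, close to the medians of all 32851 windows, 52.4% and 0.374. Nrcam holds GGGCGG from 104 to 99 bases before the start, and Ncam2 holds it on the other strand at 50 to 45 and 40 to 35 bases before it. Cntn1 holds CCAAT at 63 to 59 and 11 to 7 bases before the start. GGGCGG was matched in 5 of the 8 genes and in 32.7% of all windows; CCAAT was matched in 4 of the 8 and in 33.8%. TATAAA was matched in 1 of the 8 genes (12.4% of windows), CAGATG in 1 (14.4%) and CAGCTG in none (13.0%). No printed match overlaps another. Several windows per gene raise a gene's chance of a match, and a match is a description of letters only. No motif searched was matched in all 8 genes.

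L1cam encodes the founding member of the L1 family, which promotes axon growth and bundling. Its level cannot be read on its own, because the table measures it in an entry with Arhgap4, a GTPase-activating protein, and Naa10, the catalytic subunit of an N-terminal acetyltransferase. This entry lies on chromosome X from 71099116 to 71167283 of NCBI m37, the build of the table. It was at 133 FPKM in Hb9 MNs against 51.9 FPKM in A2 MNs, a log2 ratio of -1.35. These levels are upper limits for L1cam, and the ratio of L1cam alone is not known. In the newer annotation L1cam and Arhgap4 overlap on the same strand by 4664 bp.

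Nrcam, which binds ankyrin and takes part in axon guidance and in the assembly of nodes, was the most abundant L1 family transcript with an entry of its own. It spans 45429871 to 45706189 of chromosome 12 and was at 36.7 FPKM in Hb9 MNs against 3.40 FPKM in A2 MNs. This is a log2 ratio of -3.43, or 9.26% of the control level.

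Chl1, the close homolog of L1, lies on chromosome 6 from 103460635 to 103699671. It was at 6.61 FPKM in Hb9 MNs against 0.340 FPKM in A2 MNs, a log2 ratio of -4.28. This was below that of Cntn2 without a pseudocount, but with 0.1 FPKM added to each level the ratios were -3.93 for Chl1 and -4.16 for Cntn2, and with 1 FPKM added that of Chl1 was -2.51, above those of Cntn2, Ncam1 and Nrcam. Of all entries meeting the filter, 1.29% had a ratio as low or lower. The level in A2 SMA MNs is under 1 FPKM, and no error can be given for a ratio to so low a level.

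Nfasc encodes neurofascin, whose forms sit at the axon initial segment, at nodes and, in glia, beside the nodes. Its locus on chromosome 1, from 134461267 to 134638374, was at 17.3 FPKM in Hb9 MNs against 3.11 FPKM in A2 MNs, a log2 ratio of -2.48. The deposited status of this entry is FAIL, which means that the authors' program could not complete its own test there; the FPKM values are nevertheless listed. The 3 L1 family genes with their own entries summed to 60.7 FPKM in Hb9 MNs against 6.85 FPKM in A2 MNs, 8.86-fold lower. Nrcam had 2.12 times the level of Nfasc in Hb9 control MNs and 1.10 times in A2 SMA MNs.

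Ncam1, the neural cell adhesion molecule, binds to its own kind on neighbouring cells and carries polysialic acid, which loosens that binding. It spans 49310256 to 49607027 of chromosome 9 and was at 75.8 FPKM in Hb9 MNs against 7.23 FPKM in A2 MNs. The log2 ratio was -3.39, a 10.5-fold difference. In Hb9 control MNs 13.4% of entries were at or above its level, and in A2 SMA MNs 62.3% were. The relative Ncam2, best known from olfactory axons, spans 81200941 to 81624530 of chromosome 16 and was at 0.379 FPKM and 0.0732 FPKM. Both values are under 1 FPKM and the entry was not tested by the authors' program (status NOTEST), so its ratio of -2.37 is given without weight. The level of Ncam1 was 199.9 times that of Ncam2 in Hb9 control MNs and 98.7 times in A2 SMA MNs; Ncam1 was the main NCAM transcript in both.

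Cntn2, also known as TAG-1, is a contactin of early growing axons. It spans 134406001 to 134439567 of chromosome 1 and was at 79.8 FPKM in Hb9 MNs against 4.36 FPKM in A2 MNs. The log2 ratio was -4.19, which leaves 5.47% of the control level. A further entry for Cntn2 has the same coordinates, at 2.13 FPKM and 0.0199 FPKM. Both entries have the status FAIL. With the L1cam entry set aside because it is shared, Cntn2 was the most abundant of the adhesion molecules in Hb9 control MNs, and in A2 SMA MNs it came behind Ncam1 and Alcam.

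Cntn1, the contactin that pairs with Caspr beside the nodes and with sodium channels, lies on chromosome 15 from 91881595 to 92172398. It was at 1.85 FPKM in Hb9 MNs against 0.350 FPKM in A2 MNs, a log2 ratio of -2.41, or -1.08 with 1 FPKM added to each level. Cntn2 thus had 43.0 times the level of Cntn1 in Hb9 control MNs and 12.5 times in A2 SMA MNs. Cntnap1, which encodes Caspr, spans 101023992 to 101052038 of chromosome 11 and was at 2.83 FPKM and 1.41 FPKM. Its log2 ratio of -1.01 lies just past the limit of 2-fold. Relative to the median entry the log2 ratio was -0.72, which is inside the limit, and 22.3% of all entries had a ratio as low or lower. Caspr and its partner Cntn1 were thus both low in Hb9 control MNs, with 82.9% and 88.5% of entries at or above them.

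Alcam, an adhesion molecule of axons and of lymphocytes that binds its own kind and CD6, lies on chromosome 16 from 52249108 to 52454187. It was at 19.4 FPKM in Hb9 MNs against 6.01 FPKM in A2 MNs, a log2 ratio of -1.69, and thus kept 31.0% of the control level.

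**Figure D2:**
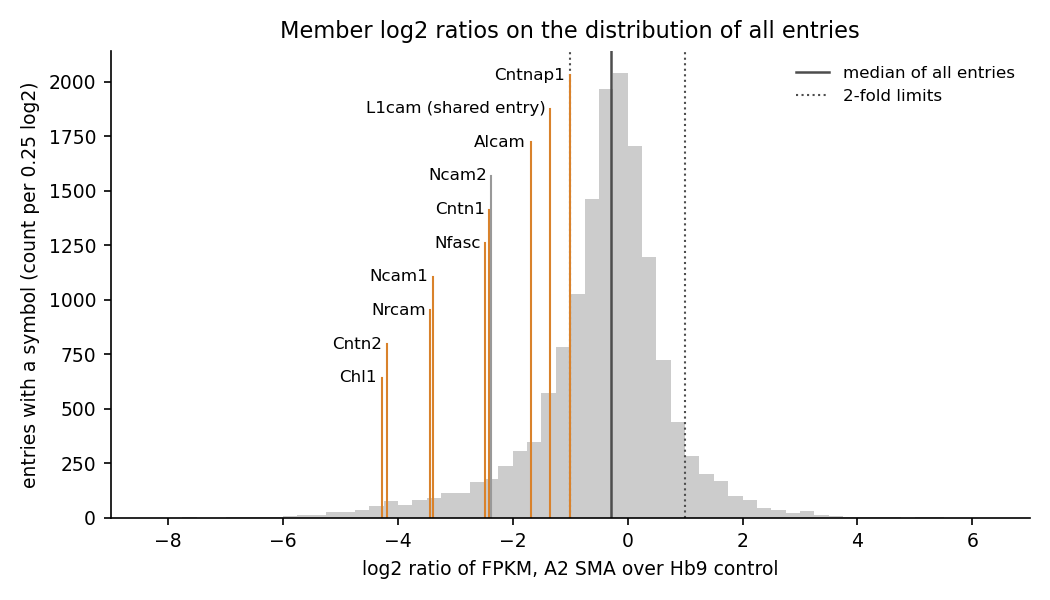
Histogram of log2 ratios of FPKM (A2 SMA over Hb9 control MNs) for the 14926 entries with a symbol that met the filter, in counts per bin of 0.25, with a line at the ratio of each adhesion molecule (orange; grey for Ncam2, which is under the filter); the heights of these lines only keep the names apart. The lines run from -4.28 (Chl1) to -1.01 (Cntnap1), all to the left of the median of -0.29.

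Because the differences were unequal in size, the make-up of the group differed between the genotypes. Of the summed level of the 9 without the shared L1cam entry, Cntn2 held 33.1% in Hb9 control MNs and 16.6% in A2 SMA MNs. Ncam1 held 31.5% and 27.5%, and Nrcam 15.3% and 12.9%. Alcam went the other way, with 8.05% of the sum in Hb9 control MNs and 22.9% in A2 SMA MNs, and so did Nfasc with 7.20% and 11.8% and Cntnap1 with 1.18% and 5.36%. Cntn2 had 4.12 times the level of Alcam in Hb9 control MNs and 0.725 times its level in A2 SMA MNs. Chl1, Cntn1 and Ncam2 together were minor in both genotypes; each held at most 2.74% of the sum. With pooled values, neighbours in this order such as Cntn2 and Ncam1 in Hb9 control MNs (79.8 and 75.8 FPKM) cannot be ranked with an error.

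The relatives of the contactins were at low levels. Of 10 other contactins and contactin-associated proteins, Cntnap2 alone met the filter, at 3.83 FPKM in Hb9 MNs against 5.01 FPKM in A2 MNs (log2 ratio 0.39). The other 9 were under 1 FPKM in both genotypes, and Cntnap5c was listed at 0 in both. Of 27 other adhesion molecules of the immunoglobulin superfamily, 25 met the filter, and 9 of these lay within the limit. By more than 2-fold 15 were lower and 1 was higher, against 22.4% and 6.83% of all entries. The median log2 ratio of the 25 was -1.53, with a range from -4.23 to 1.18, and was -0.95 with a pseudocount of 1 FPKM. Of the 15, 6 were under 1 FPKM in A2 MNs and met the filter only through Hb9 MNs. The most abundant was Nptn, neuroplastin, at 274 and 222 FPKM (log2 ratio -0.30). Cadm1, which joins synapses, was at 172 and 38.1 FPKM (-2.18), and Pvrl3, a nectin of cell junctions, at 100.2 and 38.7 FPKM (-1.37), both with the status FAIL. The single one that was higher, Thy1, was at 0.970 and 2.20 FPKM and was picked out after its value was seen.

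Of 19 cytoskeletal and trafficking partners all met the filter. By more than 2-fold 9 were lower and none was higher, against 22.4% and 6.83% of all entries, and the median log2 ratio was -0.61. Gap43, a protein of growth cones, was the most abundant at 241 FPKM in Hb9 MNs against 11.9 FPKM in A2 MNs (-4.34). The spectrin Sptan1, listed as Spna2, was at 214 and 169 FPKM (-0.34, status FAIL). Ezr, which links membrane proteins to actin, was at 85.6 and 147 FPKM (0.78). The ankyrins that hold L1 family proteins were picked out after their values were seen. Ank3 was at 32.3 and 7.05 FPKM (-2.19) and Ank2 at 30.0 and 6.61 FPKM (-2.18, status FAIL), while Ank1 was at 1.83 and 0.541 FPKM. Dcx, which binds microtubules and the L1 family member neurofascin, was likewise picked out afterwards and was at 54.4 and 2.61 FPKM (-4.38).

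Of 19 extracellular partners, ligands and modifying enzymes, 17 met the filter. By more than 2-fold 9 were lower and 1 was higher, against 22.4% and 6.83% of all entries. The median log2 ratio was -1.04 (-0.93 with a pseudocount of 1 FPKM and -0.75 relative to the median entry). Agrn, the agrin of the neuromuscular junction, was at 198 and 110 FPKM (-0.85) and Lgals1, a lectin, at 159 and 189 FPKM (0.26). Adam10, a protease that sheds L1 and other surface proteins, was at 77.6 and 37.7 FPKM (-1.04, status FAIL). The enzymes that place polysialic acid on Ncam1 were picked out after their values were seen. St8sia2 was at 23.2 FPKM in Hb9 MNs against 1.82 FPKM in A2 MNs (-3.67), and St8sia4 was at 1.34 and 0.230 FPKM (-2.54). Fut9, a fucosyltransferase, was the 1 that was higher, at 0.843 and 3.75 FPKM (2.15); it met the filter only through A2 MNs and was picked out after its value was seen.

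Of 17 signalling partners all met the filter. By more than 2-fold 8 were lower and none was higher, against 22.4% and 6.83% of all entries. The median log2 ratio was -0.92 (-1.17 over those that reached 5 FPKM in a genotype). The entry of Fgfr2, a receptor that NCAM and L1 can engage, is shared with Ctbp2 and was at 158 and 262 FPKM (0.73). The receptor phosphatase Ptprf was at 169 and 95.1 FPKM (-0.83, status FAIL). On the list named for the axon initial segment and node of Ranvier, 9 of 18 genes met the filter. By more than 2-fold 6 were lower and none was higher, and the median log2 ratio was -2.04. The list also holds the myelin genes Cldn11, Mag and Mog, of which Cldn11 alone met the filter. Cldn11, at 3.68 FPKM in Hb9 MNs against 0.893 FPKM in A2 MNs, is 1 of the 6. Its log2 ratio of -2.04 is itself the median of the list. This median was -1.01 with a pseudocount of 1 FPKM and -1.21 over the partners with at least 5 FPKM in either genotype. Trim46, which orders microtubules in the initial segment, was at 10.5 and 2.51 FPKM (-2.06). Nav1, which encodes neuron navigator 1 and not a sodium channel, was at 9.75 and 7.95 FPKM (-0.29, status FAIL). Relative to the median entry, 16.5% of all entries were lower and 10.4% higher by more than 2-fold. On that scale the number lower was 15 for the other immunoglobulin superfamily molecules and 8 for cytoskeletal partners. It was 7 for extracellular and 8 for signalling partners, and 5 for the initial segment and node. The number higher was 2, 1, 1, 1 and 0 in the same order. Of those lower without recentring, 1 cytoskeletal partner, 2 extracellular partners and 2 of the initial segment and node met the filter only through Hb9 MNs. The 6 lists were written with earlier results of these data known, and no test sets a list apart from all entries.

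**Figure D3:**
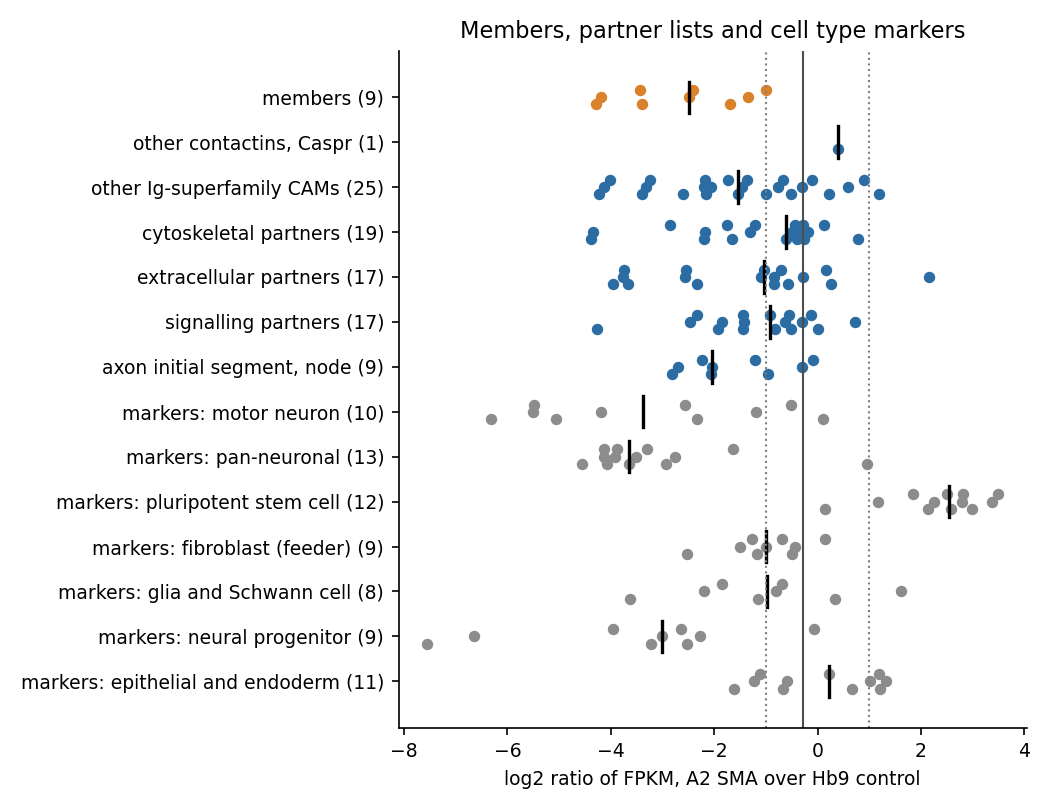
Log2 ratios of FPKM (A2 SMA over Hb9 control MNs) for the adhesion molecules (orange), 6 lists of relatives and partners (blue) and 7 lists of cell type markers (grey); each point is an entry that met the filter, the number met is in brackets and the short bar is the list's median. The solid line is the median of all entries at -0.29 and dotted lines are the 2-fold limits; the adhesion molecules have a median of -2.48, pan-neuronal markers one of -3.65 and pluripotent stem cell markers one of 2.54.

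Neuronal and neural progenitor markers were lower with the adhesion molecules, pluripotent stem cell markers were higher and the other marker lists were mixed or differed less. Of 12 motor neuron markers, 10 met the filter and 8 were lower by more than 2-fold, against 22.4% of all entries (median log2 ratio -3.38, summed level 293 and 69.5 FPKM). Isl1, an MN transcription factor, was at 108 and 5.95 FPKM, whereas Mnx1, which encodes Hb9 itself, was at 41.2 and 44.2 FPKM. Of the 8, 4 met the filter only through Hb9 MNs, as did 2 of the pan-neuronal, 1 of the neural progenitor, 2 of the fibroblast and 1 of the glial markers counted as lower in what follows. Of 14 pan-neuronal markers, 13 met the filter and 12 were lower (median -3.65, summed level 1722 and 183 FPKM). The neurofilament genes Nefm and Nefl were at 359 and 15.2 FPKM and at 297 and 17.0 FPKM. Nefh, a further neurofilament gene picked out after its value was seen, was at 2.54 and 4.93 FPKM, a log2 ratio of 0.96. Neural progenitor markers were lower as well, in 8 of the 9, out of 10, that met the filter (summed level 2591 and 287 FPKM), with Vim at 1436 and 178 FPKM and Fabp7 at 553 and 5.52 FPKM. Of the 12 pluripotent stem cell markers, 11 were higher by more than 2-fold, against 6.83% of all entries, and none was lower. Their median log2 ratio was 2.54 and their summed level 466 and 2074 FPKM. Pou5f1 was at 98.3 and 775 FPKM and Utf1 at 59.8 and 357 FPKM. No defining marker of these 4 lists was listed at 0, and transcripts of pluripotent markers were thus measured in the sorted cells of both genotypes.

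Of the epithelial and endoderm markers 11 of 12 met the filter. By more than 2-fold 4 were higher and 3 lower, against 6.83% and 22.4% of all entries (summed level 275 and 390 FPKM). Cdh1 was at 39.7 and 99.3 FPKM and Epcam at 37.01 and 84.8 FPKM. Those are epithelial markers. Of the endoderm markers, named after their values were seen, Foxa2 was at 55.9 and 18.2 FPKM (-1.62) and Foxa1 had a log2 ratio of -1.23. Sox17 had one of -1.11, Gata4 of -0.66 and Gata6 of -0.59. Afp, under the filter, went the other way, at 0.406 and 0.832 FPKM (1.04). Markers of fibroblasts, on which the mESCs had been grown, were lower in 5 of the 9, out of 12, that met the filter (summed level 83.7 and 44.3 FPKM; Col1a2 20.1 and 8.93 FPKM, Col1a1 18.9 and 9.41 FPKM), and S100a4 was listed at 0 in A2 SMA MNs. Glial markers were lower in 4 of the 8, out of 12, that met the filter and higher in 1 (summed level 88.2 and 46.5 FPKM; Cnp 28.4 and 12.8 FPKM, Mbp 18.0 and 10.3 FPKM). Relative to the median entry, 16.5% of all entries were lower and 10.4% higher by more than 2-fold. On that scale the number lower and the number higher were 7 and 0 for motor neuron and 12 and 1 for pan-neuronal markers. They were 8 and 0 for neural progenitor and 0 and 11 for pluripotent stem cell markers. They were 1 and 4 for epithelial and endoderm, 2 and 0 for fibroblast and 3 and 1 for glial markers, so that the fibroblast count was 2 in place of 5. The part of the cell type markers in the lower levels of the adhesion molecules was not tested. In these bulk samples fewer cells that express a gene and less RNA of it per cell cannot be told apart.

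The genes around the adhesion molecules were read to see whether whole stretches of chromosome shared the difference. Within 200 kb of any of the 10 there were 43 other entries that met the filter; 12 of these (27.9%, against 22.4% of all entries) were lower by more than 2-fold and their median log2 ratio was -0.48. Cntn2 and Nfasc are themselves neighbours, 21.7 kb apart on chromosome 1. The next gene on the other side of Cntn2, Rbbp5, lies under 1 kb away, and its entry, shared with Tmem81, was at 14.4 and 22.1 FPKM, a log2 ratio of 0.62. Of the 5 neighbours of Cntn2 that met the filter, 3 were lower by more than 2-fold and the median was -1.03; Nuak2 had a log2 ratio of -1.89, Tmcc2 of -1.03 and Nfasc of -2.48, and Dstyk had one of 0.16. Lrrn2, on the far side of Nfasc, had one of -1.22. Near Nrcam the only entries that met the filter were Pnpla8 and Dnajb9, with log2 ratios of -0.34 and -0.66. Near the shared L1cam entry none of 12 was as low as it, and Renbp, 0.176 kb away, was at 91.8 and 109 FPKM. Near Cntn1, Gm16629 had a log2 ratio of -0.40 and Pdzrn4 of -4.05 (6.62 and 0.399 FPKM). Near Ncam1, Ttc12 had one of -0.37 and Drd2, the dopamine receptor, of -3.45 (1.61 and 0.147 FPKM). Cblb, the neighbour of Alcam, had one of -1.33, and Chl1 and Ncam2 had no other entry within 200 kb. These neighbours were named after their values were seen.

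Some neighbours overlap a member's locus, and no source used here says whether reads were assigned by strand. Plekhh3 lies at the locus of Cntnap1 and overlaps it by 829 bp on the opposite strand in the newer annotation; it was at 23.2 and 6.98 FPKM, a log2 ratio of -1.73. Ccr10 overlaps Cntnap1 by 2447 bp on the opposite strand and was at 0.509 and 0.122 FPKM. As Cntnap1 was at 2.83 and 1.41 FPKM, some of its small signal and of theirs cannot be told apart. Of 19 neighbours of Cntnap1 that met the filter, 4 had a lower ratio than Cntnap1, and the median of the 19 was -0.57. Gm11149 overlaps Ncam1 by 54304 bp on the opposite strand; it and Gm17616 were at 0.712 and 0.703 FPKM in Hb9 control MNs and were listed at 0 in A2 SMA MNs, levels far under those of Ncam1 itself. Avpr2, which overlaps L1cam by 3401 bp on the opposite strand, was at 0.117 and 0.183 FPKM.

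**Figure D4:**
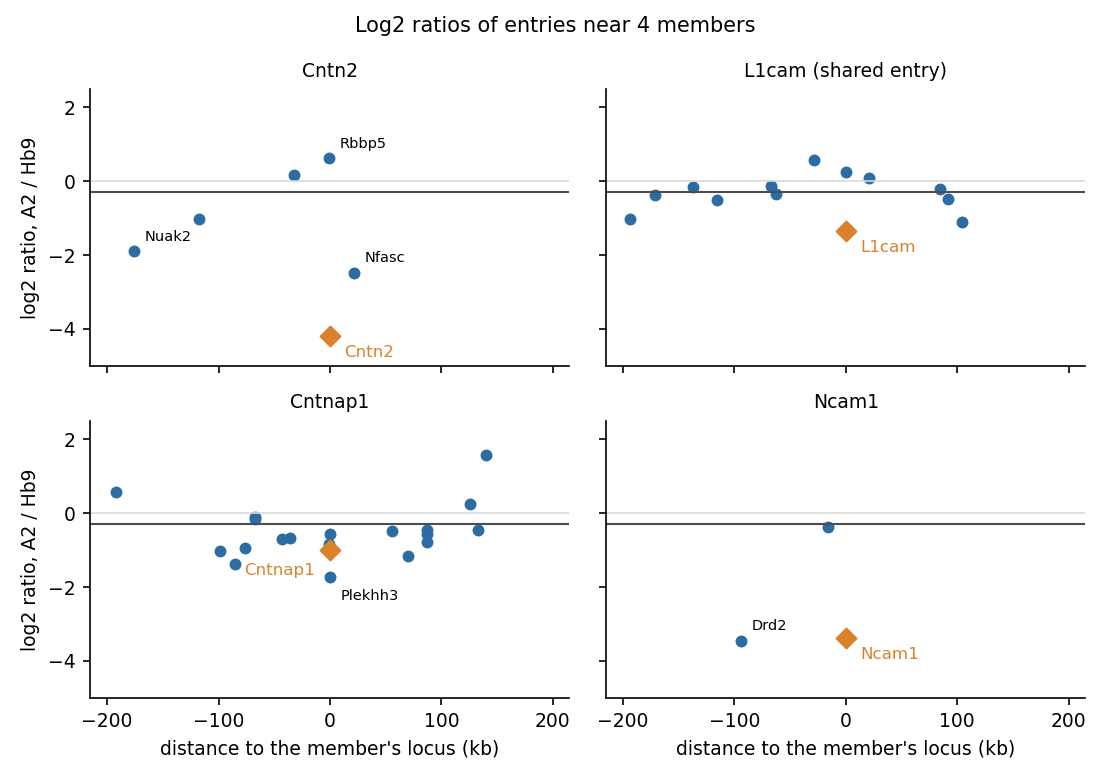
Log2 ratios of FPKM (A2 SMA over Hb9 control MNs) of entries that met the filter, by distance in kb from the locus of Cntn2, the shared L1cam entry, Cntnap1 and Ncam1 (orange diamonds; blue points are neighbours, at 0 kb where they share the locus; dark line, median of all entries at -0.29). Rbbp5 at 0.62 lies under 1 kb from Cntn2 at -4.19, the 12 neighbours of L1cam lie above its -1.35, and Cntnap1 at -1.01 lies among its neighbours.

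The annotated lengths of the genes were set beside the differences. In GENCODE M21 the longest are Ncam2 (426 kb), Ncam1 (297 kb), Cntn1 (291 kb), Nrcam (273 kb) and Chl1 (240 kb), followed by Alcam (205 kb) and Nfasc (177 kb), and L1cam (42.3 kb), Cntn2 (33.8 kb) and Cntnap1 (20.2 kb) are short. The short genes Cntn2 and Cntnap1 had log2 ratios of -4.19 and -1.01, and the long genes Chl1 and Alcam had ratios of -4.28 and -1.69. All 10 have more than 1 annotated transcript, from 2 for Cntnap1 to 17 for Nrcam. An FPKM value sums the transcripts of an entry, so that forms known to differ between tissues, such as the glial and neuronal forms of Nfasc, were not separated here.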

How the data were processed

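RNA of sorted MNs from 3 Hb9 control and 3 A2 SMA samples was analysed. Per the study's methods and the submitters' processing notes, the authors checked single-end reads with FastQC 0.10.1, removed adapters with CutAdapt, mapped them to NCBI m37 with TopHat 2.04 and the Ensembl annotation, and used Cufflinks and Cuffdiff. The deposited values are FPKM, with 1 value per genotype that the authors' program made from its 3 samples. The table also holds the authors' fold change, test statistic, p and q, which were not used; the status was.

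Log2 ratios were formed with Python 3.11.15, numpy 2.4.6 and pandas 2.3.3, and figures were drawn with matplotlib 3.10.9. The code was run on simulated levels without noise, which checks its arithmetic only. The table gives no reads per value, the totals per sample that the study gives were not used, and no test was made. Entries were kept if they had a symbol, reached 1 FPKM in at least 1 genotype and were above 0 in each. The members and lists were chosen with earlier results of these data known. Named genes were the 10 members, Smn1, the 3 most abundant of each list, the 2 most abundant of each marker list, genes sharing a member's locus, and others said to be picked after their values were seen. Of the genes this names, 2 are not reported here. Older symbols were matched through RefSeq synonyms; Slc18a3, Tubb3 and Sox1 were not matched. Alternatives were pseudocounts, scalings, filters, other fold limits and summed entries.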

Additional observations from a re-analysis of the deposited data

How the results depend on the processing

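Of 105 values recomputed under the alternatives, 96 stayed on their side of the 2-fold limit (counts of members, within 1.5 times). The other 9 did not, and none of the 105 changed sign. A pseudocount, a filter or a fold limit cannot change the sign of a member's ratio, and the scalings shifted log2 ratios by only 0.29. The kept signs of the members, and their counts of none higher, were thus fixed in advance and are no check. All 13 counts of members lower and all 13 of members higher were among the 96 (each 13 includes a count at 1.5-fold and at 4-fold), as were all 11 medians of the members, which ran from -1.85 (no filter, pseudocount of 1 FPKM) to -3.39 (at least 5 FPKM in either genotype) beside the -2.48 reported. Cntnap1 came inside the limit with a pseudocount of 0.1 FPKM (-0.96) or 1 FPKM (-0.67), relative to the median entry (-0.72) and with upper quartile scaling (-0.72), and Ncam2 did so with a pseudocount of 1 FPKM (-0.36). With that pseudocount Chl1 was at -2.51 and Cntn1 at -1.08. With a pseudocount of 1 FPKM, the median log2 ratio of other immunoglobulin superfamily adhesion molecules was -0.95 and that of extracellular partners -0.93; the latter was -0.75 relative to the median entry. That of signalling partners was -1.17 with at least 5 FPKM in either genotype. A pseudocount draws low levels together by construction, and a scaling shifts every log2 ratio by the same amount. The filter at 5 FPKM took the median over 16 signalling partners in place of 17. A limit of 4-fold left 6 of 9 members, which is just within 1.5 times, and 8.88% of all entries. Leaving out entries with the status FAIL left 7 members, all lower by more than 2-fold. As alternatives chosen after seeing the data, leaving out the L1cam entry gave 8 of 8 lower (median -2.94), and leaving out Nfasc and Cntn2 as well gave 6 of 6 (median -2.90). No paired analysis was possible because the table gives 1 pooled value per genotype, and for the same reason no sample could be left out. Levels were under 1 FPKM for Ncam2, and in A2 SMA MNs for Chl1 and Cntn1; the table gives no reads behind them.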

Other observations

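Among the other adhesion molecules of the immunoglobulin superfamily, members of several small families were on the list; they were singled out after their values were seen, and the values are pooled over samples. The IgLON proteins on the list are lipid-anchored molecules of neuronal surfaces; all 4 were under 1 FPKM in A2 MNs and met the filter only through Hb9 MNs. Lsamp was at 7.93 FPKM in Hb9 MNs against 0.490 FPKM in A2 MNs, Ntm at 8.22 and 0.779 FPKM, Opcml at 1.17 and 0.123 FPKM and Negr1, which lay within the limit, at 1.64 and 0.965 FPKM. Of the 4 synaptic Cadm proteins, Cadm3 was at 59.4 and 3.17 FPKM, Cadm4 at 49.0 and 10.6 FPKM, Cadm1 at 172 and 38.1 FPKM and Cadm2, under the filter, at 0.696 and 0.0743 FPKM. Sdk2, a sidekick protein known from synaptic layers of the retina, was at 65.5 and 3.73 FPKM, and Sdk1 at 6.16 and 1.01 FPKM.

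The nectins, which also hold epithelial junctions together, were mixed. Pvrl1 was at 18.9 FPKM in Hb9 MNs against 6.80 FPKM in A2 MNs and Pvrl3 at 100.2 and 38.7 FPKM, while Pvrl2 was at 67.4 and 78.7 FPKM and Pvrl4, under the filter, at 0.425 and 0.637 FPKM. Bcam, a laminin-binding protein, was at 41.4 and 62.7 FPKM, with a log2 ratio of 0.60. None of these differences has a replicate check.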
